A study of Phalaenopsis aphrodite subsp. formosana with 4 samples.

Results

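The miRNA families miR160, miR390, miR393 and miR394 were followed through 4 small RNA libraries of the moth orchid Phalaenopsis aphrodite subsp. formosana (strain M1624). Their members were all sequences whose best matching known miRNA was a miR160, miR390, miR393 or miR394 of any plant, which took 129 of 11129 unique sequences, 4 of 368 families and 1496 of 1002362 matched reads (0.149%). The flower bud library (FB) was made from buds collected at month 3.5 and the stalk library (S) from stalks collected at months 1.5 and 2, both from plants moved to days of 24°C and nights of 18°C. The low temperature-treated leaf library (CL) came from plants under the same 24°C and 18°C regime, and the untreated leaf library (NL) from plants kept at 32°C and 27°C, where the change to flowering was held back. All plants were seedlings of the same strain grown beforehand at 28°C for 7 to 8 months. Leaves were taken at 0.5-month intervals from month 0 to month 2, and the labels do not say which of these collections entered each leaf library. The low temperature lasted 2 months. The buds were thus collected later than any leaf and after these months, and the temperature after them is not stated. Organ and time of collection cannot be told apart in FB, nor in S, since the leaf collections used are unknown. Each condition had 1 library, so every ratio below compares 2 libraries, has no replicate check, and carries an interval for counting error only. No tissue marker gene is measured by small RNA reads, so the organ labels could not be checked in this way.

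These families act on auxin signalling and on the shoot meristem, as known mainly from Arabidopsis and rice. miR160 cleaves transcripts of AUXIN RESPONSE FACTORs that repress auxin-responsive genes, and miR393 cleaves those of TIR1 and its relatives, the F-box proteins that perceive auxin. miR390 is loaded into ARGONAUTE7 through its 5′ adenine and directs the TAS3 transcript into trans-acting siRNAs, which in turn silence further AUXIN RESPONSE FACTORs involved in organ polarity and phase change. miR394 moves from the surface layer of the shoot meristem and represses the F-box gene LEAF CURLING RESPONSIVENESS, and this repression maintains the stem cells below.

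The sequence that reached the known form of each family is shown first, because it identifies the miRNA in this orchid. Sequences are written 5′ to 3′ as in the deposited reads, with T for U, and capitals mark bases 2 to 8, the seed.
miR160, identical to ath-miR160a of Arabidopsis: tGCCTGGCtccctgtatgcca
miR390, identical to ath-miR390a of Arabidopsis: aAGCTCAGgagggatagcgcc
miR393, identical to osa-miR393 of rice: tCCAAAGGgatcgcattgatc
miR394, identical to ath-miR394a of Arabidopsis: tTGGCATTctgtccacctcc
The 4 seeds differed from one another, and no sequence assigned to another family held the first 16 bases of any of these forms. The known forms of miR160, miR390 and miR393 are 21 nt long and that of miR394 is 20 nt long. They drew 103 reads for miR160, 930 for miR390, 7 for miR393 and 38 for miR394 over the 4 libraries. In miR393 the known form was therefore not the main one, and the reads of this family centred on a 20 nt and a 22 nt sequence described with that family.

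The 4 families together had 411 reads in FB, 270 in S, 396 in CL and 419 in NL. Each count was divided by the clean reads of its library, a total that the study states, and multiplied by 1000000 (RPM). The largest of these totals was 1.27 times the smallest. On this scale the 4 families summed to 65.1 RPM in FB, 33.7 in S, 53.5 in CL and 58.2 in NL. miR390 made up most of these reads in every library, with 263 of 411 in FB, and FB held most of the miR160 and miR394 reads. Reads matched to any known miRNA numbered 265352 in FB, 106142 in S, 404345 in CL and 226523 in NL, and their RPM ratio was 0.242 for S over CL, 3.17 for FB over S, 0.769 for FB over CL and 1.74 for CL over NL (log2 of -2.04, 1.67, -0.38 and 0.80). The family miR528 alone held 113491 of these reads in FB, 9450 in S, 163625 in CL and 47095 in NL. A ratio relative to all matched reads therefore also reflects how miR528 differed between libraries, and the size of that part was not tested. The median ratio of abundant sequences of other families was 0.497 for S over CL, 2.36 for FB over S, 1.01 for FB over CL and 1.22 for CL over NL (log2 of -1.01, 1.24, 0.01 and 0.28). The stalk library thus stood below the others in miRNA reads as a whole, and the ratios of the families that involve S are also given relative to these shifts.

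**Figure D1:**
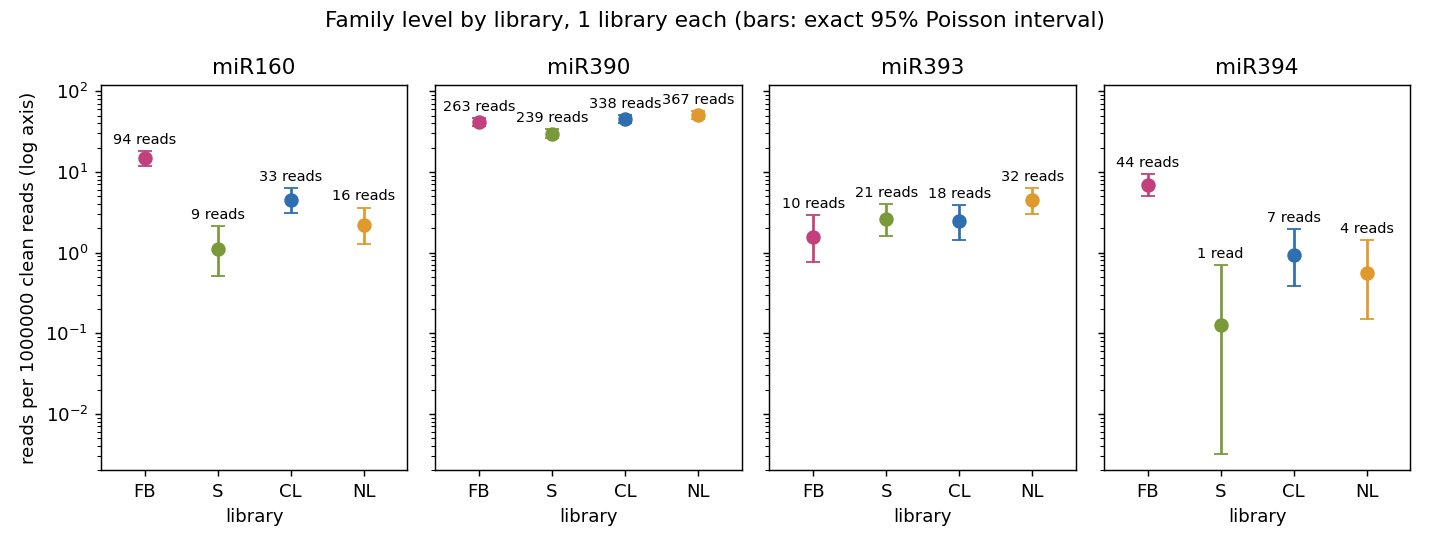
Level of each family (reads per 1000000 clean reads, log axis) in flower buds (FB), stalks (S), low temperature-treated leaves (CL) and untreated leaves (NL), with the exact 95% Poisson interval and the number of reads. miR160 and miR394 stood highest in FB (14.9 and 6.97 RPM), miR390 lay between 29.8 and 50.96 RPM throughout, and miR393 had no more than 4.44 RPM in any library.

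miR160 was most abundant in flower buds. It had 94 reads in FB, 9 in S, 33 in CL and 16 in NL, or 14.9 RPM (95% Poisson interval 12.02 to 18.2) in FB, 1.12 (0.513 to 2.13) in S, 4.46 (3.07 to 6.26) in CL and 2.22 (1.27 to 3.61) in NL. The interval of FB lay apart from those of the other 3 libraries. FB exceeded CL by a ratio of 3.34 (exact binomial 95% interval 2.22 to 5.12) and S by a ratio of 13.3 (6.69 to 29.9). The FB over CL ratio of miR160 lay between 2.90 and 4.69 under the other denominators and choices of sequences, each with an interval above 1. The FB over S ratio was 4.18 (2.11 to 9.42) relative to all matched reads and 5.60 (2.83 to 12.6) relative to the median abundant sequence, with both intervals still above 1.

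Between the leaf libraries miR160 was 2.01 times as high in CL as in NL (1.07 to 3.91). This ratio rested on 33 and 16 reads, and its interval held 1 with perfect matches only (2.03, 0.982 to 4.43), relative to all matched reads (1.16, 0.618 to 2.25) and relative to the median abundant sequence (1.65, 0.884 to 3.21). In S, miR160 was at 0.252 times its level in CL (0.106 to 0.538), but relative to all matched reads the ratio was 1.04 (0.437 to 2.22) and relative to the median abundant sequence 0.507 (0.213 to 1.08), so as a share of miRNA reads miR160 in S did not differ from CL beyond counting error. The order of the levels was FB, CL, NL and S, and the neighbours NL and S did not differ beyond counting error (1.98, 0.823 to 5.08).

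miR394 showed the same order with fewer reads. It had 44 reads in FB, 1 in S, 7 in CL and 4 in NL, which gave 6.97 RPM (5.06 to 9.35) in FB, 0.125 (0.00316 to 0.695) in S, 0.946 (0.380 to 1.95) in CL and 0.555 (0.151 to 1.42) in NL. FB again stood apart from the other libraries, whose intervals overlapped one another. The FB over CL ratio was 7.36 (3.29 to 19.4), and it lay between 5.66 and 17.6 under the alternatives, all with intervals above 1. FB over NL was 12.5 (4.56 to 48.1). FB over S was 55.8 with an interval of 9.51 to 2254, a width set by the single read in S. Relative to all matched reads this ratio was 17.6 (2.998 to 711) and relative to the median abundant sequence 23.6 (4.02 to 953). That single stalk read carried the substitution T10C (position counted from 1 at the 5′ end of the known form), so the known form of miR394 itself had 0 reads in S, which allows up to 3 reads or 0.374 RPM. CL over NL was 1.70 (0.433 to 7.93) and S over CL was 0.132 (0.00293 to 1.03), with 0.544 relative to all matched reads and 0.266 relative to the median abundant sequence. With 11 and 8 reads these comparisons were below the read minimum and no difference was detectable at this depth.

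miR390, the most abundant of the 4 families, varied least between libraries on clean reads. It ranked 16 of 368 families by reads and had 263 reads in FB, 239 in S, 338 in CL and 367 in NL. Its level was 41.6 RPM (36.8 to 47.0) in FB, 29.8 (26.2 to 33.8) in S, 45.7 (40.9 to 50.8) in CL and 50.96 (45.9 to 56.5) in NL. The neighbours NL and CL (CL over NL 0.896, 0.771 to 1.04) and FB and CL (FB over CL 0.911, 0.773 to 1.07) did not differ beyond counting error on clean reads. Relative to all matched reads, CL over NL was 0.516 (0.444 to 0.5998), which counts as lower by the limits given further on, and FB over CL was 1.19 (1.01 to 1.40). Relative to the median abundant sequence CL over NL was 0.738 (0.634 to 0.858). The stalk was lowest, at 0.653 times CL (0.551 to 0.773), while FB over S was 1.396 (1.17 to 1.67). Both stalk ratios turned round under another scaling. S over CL was 2.69 relative to all matched reads and 1.31 relative to the median abundant sequence, and FB over S was 0.440 and 0.590, so that miR390 made up a larger share of the miRNA reads of stalks than of flower buds or treated leaves.

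miR393, like miR390, had its highest level in untreated leaves, with far fewer reads. It had 10 reads in FB, 21 in S, 18 in CL and 32 in NL, or 1.58 RPM (0.759 to 2.91) in FB, 2.62 (1.62 to 4.01) in S, 2.43 (1.44 to 3.84) in CL and 4.44 (3.04 to 6.27) in NL. The order was NL, S, CL and FB, and each pair of neighbours overlapped within counting error. The ratio of CL over NL was 0.547 with an interval of 0.289 to 1.01, and that of FB over CL was 0.651 (0.268 to 1.49). On clean reads, NL was 2.81 times FB (1.35 to 6.40), and the other pairs were within counting error. CL over NL left out 1 under each other denominator, at 0.315 (0.167 to 0.579) relative to all matched reads, 0.451 (0.238 to 0.827) relative to the median abundant sequence and 0.526 (0.278 to 0.966) per high-quality read. S over CL was 1.08 (0.546 to 2.14) on clean reads, 4.44 (2.25 to 8.85) relative to all matched reads and 2.17 (1.10 to 4.32) relative to the median abundant sequence. FB over S was 0.604 (0.254 to 1.34) on clean reads, 0.190 (0.0801 to 0.423) relative to all matched reads and 0.256 (0.107 to 0.567) relative to the median abundant sequence. On those 2 scales miR393 was thus higher in S than in CL and lower in FB than in S.

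**Figure D2:**
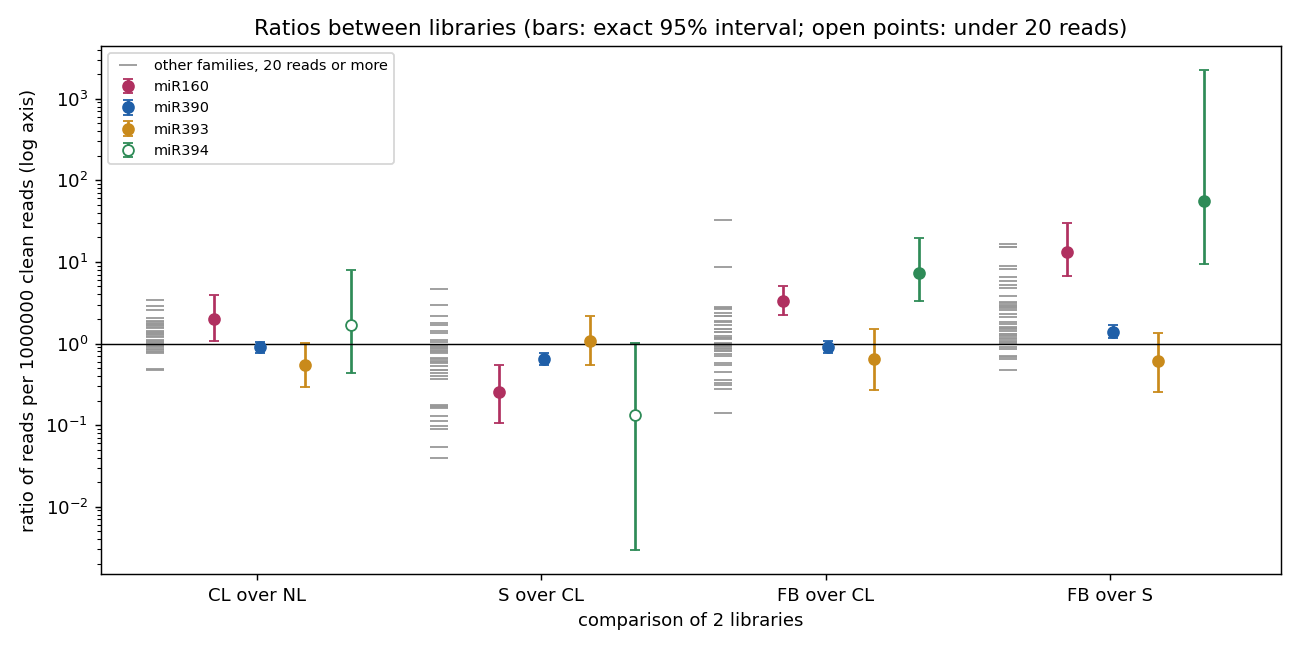
Ratio of reads per 1000000 clean reads between 2 libraries (log axis) for the 4 families, with exact 95% intervals, beside the other families with at least 20 reads (grey dashes). miR160 and miR394 lay above 1 in both comparisons of FB (3.34 and 7.36 over CL, 13.3 and 55.8 over S), and the S over CL ratios of miR160 and miR390 (0.252 and 0.653) became 1.04 and 2.69 relative to all matched reads.

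A family was counted as higher or lower in a comparison when it had at least 20 reads over the 2 libraries, a ratio above 1.5 or below 0.667, and a 95% interval that left out 1. For FB over CL, 2 of 4 families (miR160 and miR394) were higher and 0 lower, against 28.3% of all 46 families higher and 17.4% lower. For FB over S, the same 2 of 4 were higher and 0 lower, against 52.1% of 48 families higher and 2.08% lower, so higher families in FB than in S were common among all miRNAs. In both comparisons miR394 passed the read minimum through its 44 reads in FB, beside 7 in CL and 1 in S. It could then hardly be called anything but higher, so its calls add no support. For FB over S, miR160 likewise passed the minimum through FB (94 reads beside 9). For S over CL and CL over NL, miR160 passed it through CL (33 reads beside 9 and 16). These miR160 calls add no support either. For S over CL, 2 of 3 families (miR160 and miR390) were lower and 0 higher, where 48.8% of 43 families were lower and 9.3% higher, and the median ratio of all 43 was that of miR390 itself, 0.653. For CL over NL, 1 of 3 families (miR160) was higher and 0 lower, against 34.1% of 41 families higher and 4.88% lower. The median ratios of the members were 2.12 for FB over CL, 7.32 for FB over S and 0.896 for CL over NL, beside 1.08, 1.66 and 1.24 for all families. The FB medians include miR394, which entered them through its FB reads, as miR160 did for FB over S. The comparisons of FB and S with CL share the CL library, and FB over S shares FB and S with both.

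Other families that act on auxin signalling or the meristem were miR164, which targets boundary genes of the NAC class, miR165 and miR166, which target HD-ZIP III genes of organ polarity, miR167, which targets activating AUXIN RESPONSE FACTORs, and miR171, which targets HAIRY MERISTEM genes. For CL over NL, 0 of these 5 were higher or lower, with a median ratio of 0.926. For FB over CL, miR165 (2.65, 1.88 to 3.79) and miR171 (2.84, 2.37 to 3.41) were higher and miR167 was lower (0.142, 0.138 to 0.146), with a median ratio of 1.01. miR167 and miR160 thus lay on opposite sides of 1 between these libraries. For S over CL, 4 of the 5 were lower with a median of 0.364, and for FB over S, 5 of 5 were higher with a median of 2.77. These counts held on clean reads only: relative to all matched reads, 3 were higher and 1 lower for S over CL (median 1.50) and 2 higher and 1 lower for FB over S (median 0.872). For CL over NL, 4 of the 5 were lower on that scale, with a median of 0.533.

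To compare whole patterns, the RPM of a family was divided by its sum over the 4 libraries, and the distance between 2 families was the summed absolute differences of these shares divided by 2 (0 for the same pattern, 1 for no overlap). miR160 had 65.6% of its summed RPM in FB, 4.95% in S, 19.7% in CL and 9.79% in NL, and miR394 had 81.1%, 1.45%, 11.01% and 6.46% in the same order of libraries. Among the other families with at least 100 reads, miR160 was nearest to miR397 (0.0822), miR159 (0.174) and miR171 (0.181). miR394 was nearest to miR169 (0.119), to miR160 (0.155) and to miR397 (0.223). miR390 had 24.8% in FB, 17.7% in S, 27.2% in CL and 30.3% in NL, and lay nearest to miR894 (0.0279), miR166 (0.0720) and miR2916 (0.0852). miR393 had 14.3%, 23.6%, 21.96% and 40.1% in that order, and lay nearest to miR399 (0.0602), miR894 (0.153) and miR390 (0.157). Each pattern rests on 4 libraries, and the distances are descriptions without a test.

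The reads of each family were then sorted by form, that is by where they began and ended relative to the known form. The known form took 67.8% of the miR160 reads, 77.1% of miR390, 8.64% of miR393 and 67.9% of miR394. Across the 129 sequences, 80 were read 1 time, 87 were found in 1 library, and the 14 found in all 4 libraries held 83.2% of the reads. The ends that varied differed between the families. miR160 had 10 reads that began 1 base late and 0 that ended early without another change, miR394 had 13 reads that began late and 1 that ended early, and miR393 had 2 that began late and 41 that ended early.

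**Figure D3:**
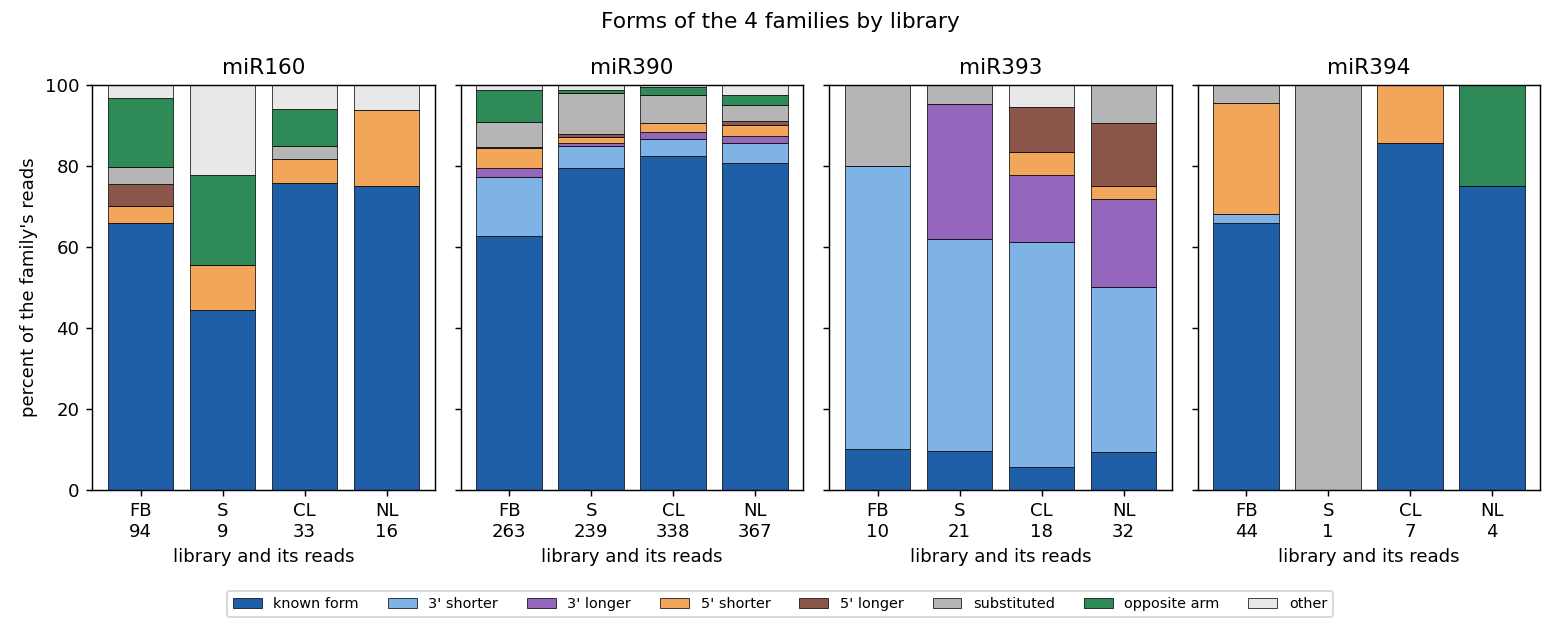
Share of each family's reads (percent) by form in FB, S, CL and NL, with the number of reads under each bar. The known form was the largest class in each library of miR160, miR390 and miR394 except for the single miR394 read of S, while 3′-shortened reads led miR393 (41 of 81).

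The forms of miR390 did not move together between libraries. The sequences that carried this difference are the known form, its shorter versions and the strand from the opposite arm of the precursor, each with bases 2 to 8 in capitals.
miR390 known form, 21 nt: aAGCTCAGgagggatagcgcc
miR390 1 base shorter at the 3′ end: aAGCTCAGgagggatagcgc
miR390 2 bases shorter at the 3′ end: aAGCTCAGgagggatagcg
miR390 3 bases shorter at the 3′ end: aAGCTCAGgagggatagc
miR390 1 base shorter at the 5′ end: aGCTCAGGagggatagcgcc
miR390 opposite arm: cGCTATCTatcctgagtttta
The known form had 165 reads in FB, 190 in S, 279 in CL and 296 in NL, and FB over CL was 0.693 (0.568 to 0.843) on clean reads and 0.901 (0.739 to 1.10) relative to all matched reads. All other miR390 sequences together were 1.95 times as high in FB as in CL (1.39 to 2.73) on clean reads and 2.53 times (1.81 to 3.56) relative to all matched reads. On clean reads the level of the whole family in FB, close to that of CL, was thus made of a lower known form and a higher remainder.

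Reads of miR390 that kept the known start and ended 1 to 3 bases early numbered 38 in FB, 13 in S, 14 in CL and 18 in NL. In RPM they were 3.18 times as high in FB as in CL (1.68 to 6.35) and 3.71 times as high as in S (1.93 to 7.59). Relative to all matched reads FB over CL was 4.14 (2.19 to 8.26), but FB over S was 1.17 (0.609 to 2.39), and relative to the median abundant sequence FB over S was 1.57 (0.817 to 3.21), so the difference from S held on clean reads only. The sequence 2 bases short had 12 reads in FB, 3 in S, 1 in CL and 2 in NL, the one 1 base short had 14, 4, 8 and 7, and the one 3 bases short had 12, 6, 5 and 9 in the same libraries. Among reads of the known start without a substitution, those ending early made up 18.2% in FB (exact binomial 95% interval 13.2 to 24.1), 6.34% in S (3.42 to 10.6), 4.68% in CL (2.58 to 7.73) and 5.61% in NL (3.36 to 8.72). The interval of FB lay apart from the other 3. The sequence that began 1 base late had 10 reads in FB, 3 in S, 5 in CL and 10 in NL, and FB over CL was 2.34 (0.730 to 8.73), which is within counting error.

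**Figure D4:**
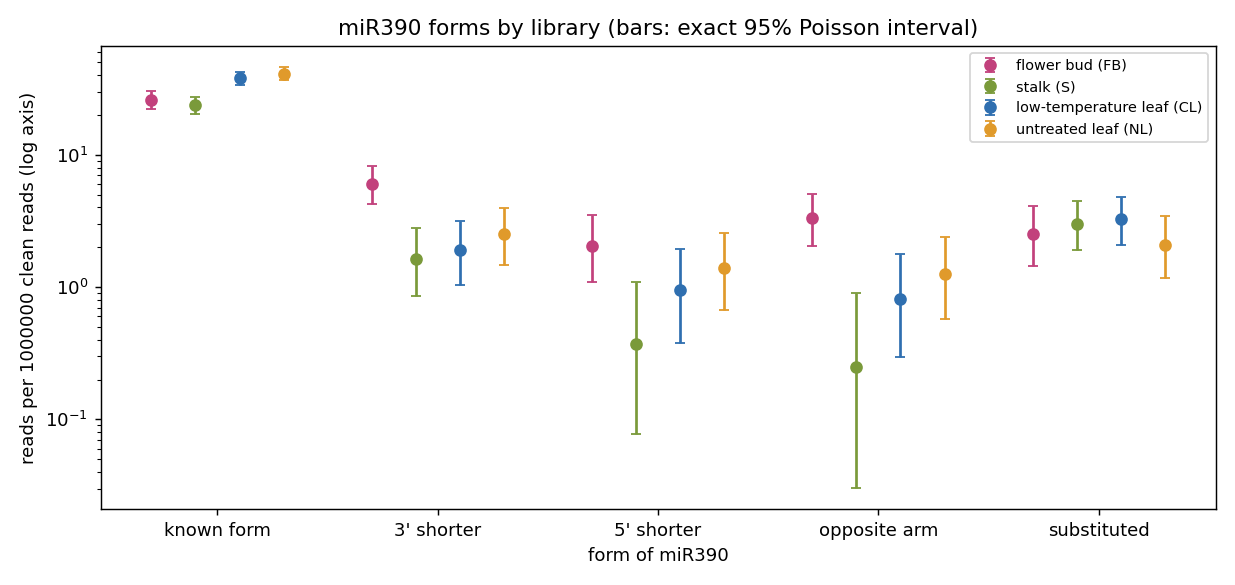
Level of the miR390 forms (reads per 1000000 clean reads, log axis) in FB, S, CL and NL with exact 95% Poisson intervals. On this scale the known form was lower in FB than in CL (ratio 0.693, and 0.901 relative to all matched reads), while 3′-shortened reads and the opposite arm were higher (ratios 3.18 and 4.10).

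Short reads were more frequent in the FB library in other families too. Of the 12 other families with at least 100 reads of the known start in each library, 8 had a higher share of 3′-shortened reads in FB than in CL, and these shares were highest of the 4 libraries in FB in 8. The ratio of the FB share to the CL share was 3.88 in miR390, and in the 11 other families with a share above 0 in CL it had a median of 1.44 and ran from 0.162 (miR167) to 2.20 (miR894). Reads of 18 or 19 nt, below the 20 to 25 nt cut from the gel, made up 11.4% of miR390 in FB (7.83 to 15.9), 4.18% in S, 1.78% in CL and 3.54% in NL. In all families other than the 4 described here they made up 6.12% in FB, 5.87% in S, 3.40% in CL and 5.40% in NL. In the read totals that the study states, FB also had the most discarded reads below 18 nt and the most reads without an insert. The part of this library-wide difference in the miR390 forms was not tested.

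**Figure D5:**
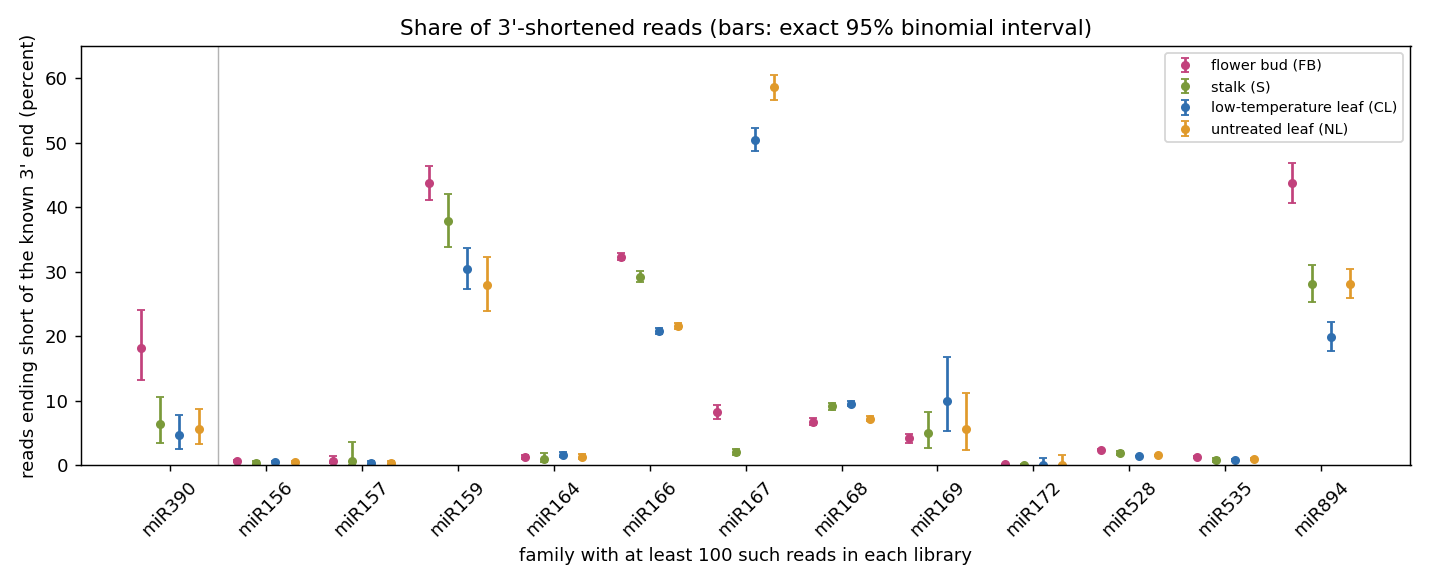
Share of reads of the known start that ended before the known 3′ end (percent), with exact 95% binomial intervals, in FB, S, CL and NL for miR390 and the 12 other families with at least 100 such reads in each library. miR390 reached 18.2% in FB against 4.68% to 6.34% elsewhere, and FB was also the highest library in 8 of the other 12 families.

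The opposite arm of miR390 had 38 reads of 6 sequences, of which 30 were the sequence given above, with 16 reads in FB, 1 in S, 6 in CL and 7 in NL. It differed from gma-miR390a-3p of soybean by C8T and C20T (positions counted from 1 at the 5′ end of the known miRNA) and by 1 further base at its 3′ end. Set against the known form with 2 free bases at each 3′ end, as DICER-LIKE enzymes leave them, it formed 16 Watson-Crick pairs, 2 G-U pairs and 1 unpaired position over 19 positions. The share of the opposite arm in miR390 reads was 7.98% in FB (5.01 to 11.9), 0.837% in S, 1.78% in CL and 2.45% in NL. In RPM, FB was 4.10 times CL (1.60 to 12.4) and 13.3 times S (3.26 to 117), a ratio against 2 reads in S. Relative to the median abundant sequence FB over S was 5.63 (1.38 to 49.6).

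The opposite arm of miR160 was likewise read mostly in FB, the library with the most miR160.
miR160 known form, bases 2 to 8 in capitals: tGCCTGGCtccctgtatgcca
miR160 opposite arm, bases 2 to 8 in capitals: gCGTATGAggagccaagcatt
This strand had 9 reads in FB, 1 in S, 1 in CL and 0 in NL, where a count of 0 allows up to 3 reads or 0.417 RPM. It differed from bra-miR160a* of Brassica rapa by T16A and A21T and formed 14 Watson-Crick pairs, 3 G-U pairs and 2 unpaired positions with the known form over 19 positions. With its variants the opposite arm had 16 reads in FB, 2 in S, 3 in CL and 0 in NL, which was 17.0% of the miR160 reads of FB (10.1 to 26.2). FB over CL was 6.25 (1.79 to 33.5), an interval that overlaps that of the miR160 known form (2.90, 1.80 to 4.82). The opposite arm of miR393 had 0 reads, which allows up to 3 in each library, and that of miR394 had 1 read, in NL.

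In miR160 the known form had 62 reads in FB, 4 in S, 25 in CL and 12 in NL, and the sequence beginning 1 base late had 4, 1, 2 and 3 reads in these libraries. The known form of miR394 had 29 reads in FB, 0 in S, 6 in CL and 3 in NL. miR394 reads that began 1 or 2 bases late numbered 12 in FB, 0 in S, 1 in CL and 0 in NL, and were 27.3% of the miR394 reads of FB (15.0 to 42.8). In CL they were 1 of 7 reads, too few to tell whether this share differed. Reads of 18 or 19 nt were accordingly frequent in miR394 in FB, at 29.5% (16.8 to 45.2).

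The miR393 reads were spread over lengths around the known form, and the main sequences are given because neither is the known form of 21 nt.
miR393, 20 nt: tCCAAAGGgatcgcattgat
miR393, 21 nt, identical to osa-miR393: tCCAAAGGgatcgcattgatc
miR393, 22 nt, identical to osa-miR393b: tCCAAAGGgatcgcattgatct
The 20 nt sequence had 4 reads in FB, 7 in S, 7 in CL and 9 in NL. The 21 nt sequence had 1, 2, 1 and 3 reads in these libraries. The 22 nt sequence, the length that in Arabidopsis triggers secondary siRNAs from cleaved targets, had 0 reads in FB, 7 in S, 3 in CL and 7 in NL. The count of 0 in FB allows up to 3 reads or 0.475 RPM, against 0.873 RPM (0.351 to 1.80) in S and 0.972 (0.391 to 2.00) in NL, and the intervals of these levels overlap that bound. The exact interval of the ratio itself reached up to 0.880 for FB over S and 0.791 for FB over NL, which leaves out 1, and up to 2.83 for FB over CL, all with fewer than 20 reads. A further 7 reads began before the known start, 0 in FB, 0 in S, 2 in CL and 5 in NL, and 6 of them carried nested bases of 1 stretch that ended at the known start.
miR393 with 5 further 5′ bases in capitals: AGAACtccaaagggatcgcattgatc
miR393 with 4 further 5′ bases in capitals: GAACtccaaagggatcgcattgat
miR393 with 3 further 5′ bases in capitals: AACtccaaagggatcgcattgatc
miR393 with 1 further 5′ base in capitals: Ctccaaagggatcgcattgatc
These had 2, 2, 1 and 1 reads. No precursor or genome sequence was used, so whether these bases stand in the precursor was not tested.

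In its first base miR390 differed from miR160, miR393 and miR394 and from the pooled reads of all other families. Single families were not compared. An A start was not particular to miR390, since the study lists abundant miR172 sequences that begin with A. Of the miR390 reads 90.5% in FB, 97.5% in S, 97.0% in CL and 96.5% in NL began with A, beside 4.21%, 16.8%, 0.624% and 1.43% of the reads of all families other than the 4. A further 7.60% of the miR390 reads in FB began with C, as the opposite arm sequence does. T was the first base of 76.3% of the miR160 reads, 88.9% of miR393 and 92.9% of miR394, beside 85.6% of the reads of the other families.

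Substituted versions of miR390 were numerous and each was rare. There were 46 such sequences with 79 reads, and 33 of them carried 1 substitution and held 66 reads (13 in FB, 22 in S, 19 in CL and 12 in NL). They fell on 18 of the 21 positions of the known form, and 20 of the 33 were read 1 time. The version with the most reads, C18T, had 9 reads (2 in FB, 3 in S, 4 in CL and 0 in NL), and A14C had 6 reads (1, 2, 2 and 1), with positions counted from 1 at the 5′ end of the known form. Beside the 930 reads of the known form, each of these was rare in every library, and their origin was not tested. Substituted sequences had 5 reads in miR160, 6 in miR393 and 3 in miR394.

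Perfect matches to a known miRNA made up 67.8% of the miR160 reads, 77.1% of miR390, 29.6% of miR393 and 67.9% of miR394, beside 59.2% of the reads of the other families. The 20 nt sequence of miR393, with 27 reads, matched osa-miR393 with 1 gap and so was not among the perfect matches. With perfect matches only, the FB over CL ratio was 2.90 (1.80 to 4.82) for miR160 and 5.66 (2.31 to 16.7) for miR394.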

How the data were processed

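Before deposit, the authors trimmed adaptors, discarded contaminants, poor reads and inserts shorter than 18 nt, collapsed identical reads, and compared the unique sequences with miRBase 15 by BLAST. For BLAST, a version was not given in the sources used here. Each of the 4 deposited tables gives the count of reads per unique sequence with its best match, its mismatches and its gaps. Further deposited columns hold other numbers, the lengths of read and known miRNA, which were correct in all 17307 entries, and an alignment score, which was not used. Small RNAs without a match are not analysed here.

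Family members were chosen by miRNA number, with letters and arms merged. Families and lists were chosen with earlier results of these data known, and forms were grouped after the values had been seen. The sequences named are the most abundant of each family and library, perfect matches with at least 3 reads, and any with at least 10 reads. Others (extended, substituted and miR394 forms) were picked with their values in view.

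Apart from the opposite arm, a form overlapped the known form by at least 16 nt with at most 2 substitutions. The opposite arm was assigned by the name of the best match alone, so its counts include reads with up to 5 mismatches and gaps. Counts were divided by the clean read totals of the study. Intervals at 95% were exact Poisson for levels, Clopper-Pearson for shares and conditional binomial for ratios, and cover counting error only, since PCR copies are not independent molecules. For a count of 0 the text gives a fixed limit of 3 reads, which is below the exact Poisson bound. That bound was 0.460 RPM for the miR394 known form in S and 0.584 RPM for the 22 nt miR393 sequence in FB. The ratio intervals were checked on simulated data, reads of the tested families drawn with ratios of 0.5, 1 and 2, and held the true ratio in 95.1% to 96.1% of draws for S over CL (43 families) and in 95.5% to 96.7% for FB over S (48 families). The draws were Poisson counts, as the intervals assume, without PCR copies or spread between libraries. They therefore check the calculation only. No test between conditions was made with 1 library each. Alternatives (those for forms and other auxin families were added after seeing the data) changed the denominator, the sequences used, the read minimum (100) and the ratio limit (2). Python 3.11.15, pandas 2.3.3, numpy 2.4.6, scipy 1.17.1 and matplotlib 3.10.9 were used.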

Additional observations from a re-analysis of the deposited data

How the results depend on the processing

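Of 124 alternative values of the ratios of the 4 families, 104 lay within the counting interval of the reported ratio. A further 17 lay outside it and 3 reversed a called ratio. A ratio of few reads has a wide interval, so a value within it need not be close. For miR394, FB over S relative to all matched reads was 17.6, reported as 55.8, and lay within it. Relative to all matched reads, S over CL was 1.04 for miR160 and 2.69 for miR390 (both reversed) and 4.44 for miR393, miR390 was 0.516 for CL over NL, 1.19 for FB over CL and 0.440 for FB over S (reported as 1.396 and not called), and FB over S was 4.18 for miR160 and 0.190 for miR393. Relative to the median ratio of abundant sequences, S over CL was 1.31 for miR390 (reversed) and 2.17 for miR393, CL over NL was 0.738 for miR390, and FB over S was 5.60 for miR160 and 0.590 for miR390. With perfect matches only, miR390 was 0.693 for FB over CL and 1.10 for FB over S, and miR393 was 0.141 for FB over S. With at most 1 mismatch or gap miR390 was 0.755 for FB over CL. Without the most abundant sequence, S over CL of miR160 was 0.577, and miR390 was 1.95 for FB over CL and 2.54 for FB over S. The cause was not tested. Of 24 alternative counts of families called higher or lower, 12 differed by more than 1.5 times from the reported ones. An equal count could still hold other families. For S over CL, matched reads called miR390 and miR393 higher, where miR160 and miR390 were reported as lower. For CL over NL, the median ratio called miR393 lower, where miR160 was reported as higher. Matched reads gave 2 for CL over NL and 4 for FB over S, the median ratio gave 1 for S over CL and 4 for FB over S, and high-quality reads as denominator gave 2 for CL over NL and 1 for S over CL. A minimum of 100 reads, which leaves fewer families, gave 0 for CL over NL and 1 for each other comparison, a ratio limit of 2 gave 1 for S over CL, and no condition on the interval gave 2 for CL over NL and 3, against 2, for FB over CL and for FB over S. Relative to all matched reads (chosen after seeing the data), S over CL reversed for the miR390 known form (2.59), miR166 (1.50) and miR171 (2.44), and FB over S for miR390 without its known form (0.800), miR165 (0.807), miR166 (0.872) and miR167 (0.505). Relative to the median ratio, S over CL reversed for the miR390 known form (1.27) and miR171 (1.19), and FB over S for miR167 (0.678). For miR394, S over CL and FB over S have no value with perfect matches only or with sequences of at least 2 reads, since S then has 0 reads. The ratios of miR160 and miR394 for FB over CL kept their direction and an interval above 1 in every alternative run. Counts under 20 reads limit miR393 in FB and CL, miR394 outside FB and miR160 in S and NL.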
